A study of Mus musculus with 12 samples.

Results

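The Janus kinases (JAKs) and the signal transducers and activators of transcription (STATs) were examined in T cells treated with an activator of STING. Of the 38924 genes in the deposited count files, 9 are described here. They are the kinase genes Jak1, Jak2 and Jak3 and the transcription factor genes Stat2, Stat3, Stat4, Stat5a, Stat5b and Stat6, taken by their symbols and Ensembl identifiers. All 9 passed the filter on low counts, none of them through the WT DMSO or the WT CMA libraries alone.

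Naive CD4+ T cells, sorted from spleens of C57BL/6 mice aged 8 to 12 weeks, were expanded with anti-CD3 and anti-CD28 antibodies over 2 days and left to rest for 1 day. They then received either CMA, which stands for carboxymethyl-acridanone, or its solvent DMSO, over 16 h. CMA is an acridone compound that acts on mouse STING, the endoplasmic reticulum protein through which cyclic dinucleotides raise an interferon response. The WT mice carried the normal allele. The STINGgt/gt mice (goldenticket, described in the labels as a knockout) carried a missense allele of Tmem173, the gene of STING, in all cells of the body and not in T cells alone. Each of the 4 groups, WT DMSO, WT CMA, STINGgt/gt DMSO and STINGgt/gt CMA, held 3 libraries. The study describes the sequenced libraries as biological replicates. The sources used here do not say whether these were separate mice or separate cultures, so p-values measure the spread between libraries of either kind.

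JAKs are tyrosine kinases bound to the inner ends of cytokine receptor chains. When a cytokine draws the chains together the kinases phosphorylate each other and the receptor, STAT proteins dock there, are phosphorylated in turn, pair up and move to the nucleus. In T cells this route carries the signals of interleukin-2, interleukin-4, interleukin-6, interleukin-12 and the interferons, and genes of the pathway are themselves among the targets of those signals. Messenger RNA was measured here, not protein or phosphorylation.

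The promoters of the genes that moved most are shown first. RefSeq promoter windows of GRCm38.p6, which run from 250 bases before to 50 bases after an annotated start site, were found for all 9 genes. They were searched on both strands for the core of the interferon-stimulated response element (ISRE, here TTTC, any 2 bases and TTTC again), which is bound by complexes that hold STAT2, and for the gamma-activated sequence (GAS, TTC, any 3 bases and GAA), bound by STAT pairs. The ISRE core was present in a window of Stat2 and in a window of Stat4 and in no window of the other 7 genes, and the GAS letters were in none of the 9. Of the 32851 windows searched in this way, 3.44% held the ISRE core and 8.30% held the GAS letters, or 3.99% and 9.55% of 27025 genes. A match is a run of letters and not a measured binding site. The Stat2 window lies at chr10:128270248-128270547 on the plus strand, with the match in capitals starting 222 bases before the start site. Stat4 has a pair of windows, and the one with the match lies at chr1:52007990-52008289 on the plus strand. Its match, in capitals, starts 97 bases before that start site and reads on the minus strand. It lies inside the Stat4 gene as annotated in the files. Both are written 5′ to 3′.
Stat2: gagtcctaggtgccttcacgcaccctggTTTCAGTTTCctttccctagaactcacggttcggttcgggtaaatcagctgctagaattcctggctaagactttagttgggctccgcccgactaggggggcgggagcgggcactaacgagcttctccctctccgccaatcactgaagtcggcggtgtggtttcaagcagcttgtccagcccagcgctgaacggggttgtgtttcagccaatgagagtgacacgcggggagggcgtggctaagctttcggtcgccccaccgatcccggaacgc
Stat4: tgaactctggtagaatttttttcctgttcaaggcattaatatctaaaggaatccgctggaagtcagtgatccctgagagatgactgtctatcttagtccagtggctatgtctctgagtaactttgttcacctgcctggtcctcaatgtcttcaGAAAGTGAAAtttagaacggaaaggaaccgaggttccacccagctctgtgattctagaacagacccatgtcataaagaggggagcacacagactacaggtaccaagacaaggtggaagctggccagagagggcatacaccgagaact

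Reads counted on genes ranged from 27414450 to 43784910 per library (median 36418677), and the 9 genes had 4219 to 29274 reads each in every library. Levels are given as CPM, the counts relative to a library size scaled by the TMM method, and as RPKM (CPM per kilobase of exon) where genes are compared with each other. Every pair of libraries within a group differed by more than sampling noise. WT DMSO libraries 2 and 3 differed most, where chi-square divided by its degrees of freedom was 27.7, against 2.52 for the closest pair. Tmem173 lay between 183 and 190 CPM in WT DMSO and between 168 and 181 CPM in STINGgt/gt DMSO. With CMA it lay between 296 and 316 CPM in WT and between 169 and 184 CPM in STINGgt/gt, so the genotypes were well apart. A missense allele need not alter the amount of RNA, so these levels do not check the allele itself. Of the 8 CD4 T cell markers none was at 0 throughout, and their summed level was 3039 to 3455 CPM over the 12 libraries. The cells had been sorted as naive T cells before the culture, a step that should remove other cell types. Markers of other cells were read nonetheless, and 6 B cell markers together reached 632 to 798 CPM in the WT libraries and 289 to 318 CPM in the STINGgt/gt libraries. In bulk RNA, fewer cells of a type and less RNA per cell cannot be told apart.

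To see whether STING activation altered the messenger RNA of the pathway, CMA was compared with DMSO in WT T cells. The study reports that overnight CMA led to apoptosis in cultures of WT T cells and not of STINGgt/gt T cells. The part of cell death in the differences between the groups was not tested. Stat2 and Stat4 showed the largest differences among the 9 genes and were 3.94-fold and 2.43-fold higher with CMA. Jak2, Stat5a and Stat6 were 1.27-fold to 1.35-fold higher, and Stat3 was slightly lower. Jak1, Jak3 and Stat5b did not pass the threshold. In all, 5 of the 9 genes were higher and 1 was lower at an adjusted p of 0.05 (quasi-likelihood test of edgeR, Benjamini-Hochberg adjusted across the 13811 genes tested). Across all genes tested, 33.0% were higher and 37.4% lower in this comparison, so a call as such was common. The median log2 fold change of the 9 genes was 0.34, and that of all genes tested was -0.04.

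**Figure D1:**
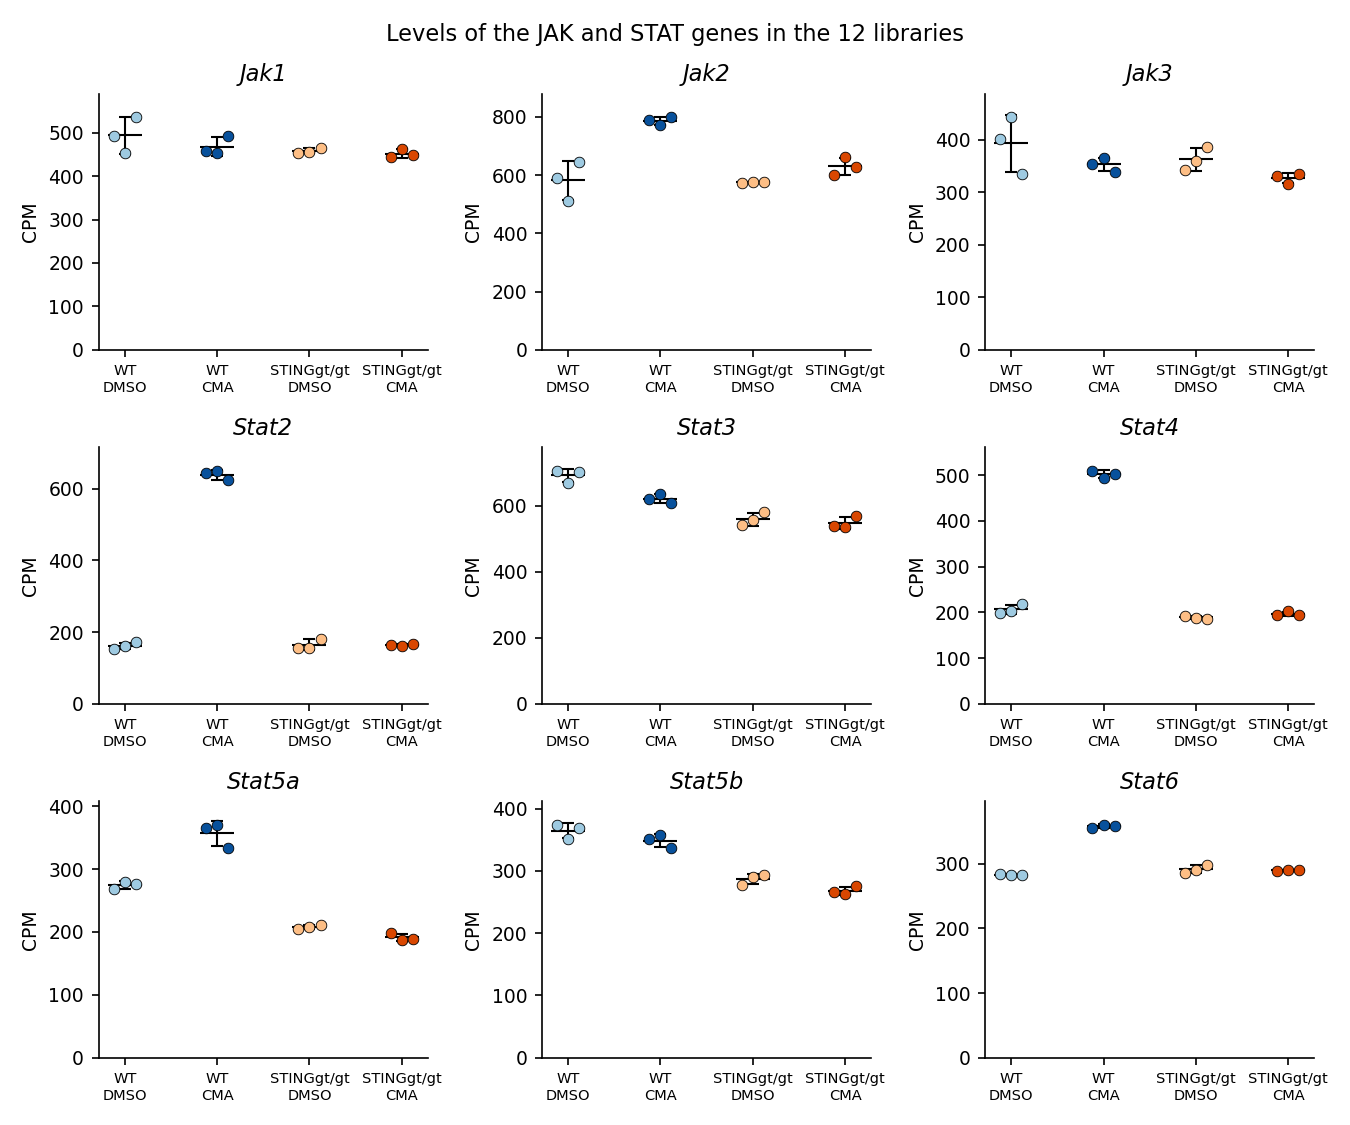
Level of each gene in CPM (vertical axes, from 0) in the 4 groups, with 1 point per library and the mean and SD of 3 libraries as a bar. The WT CMA libraries stand apart for Stat2 (623 to 650 CPM) and Stat4 (493 to 510 CPM), while both STINGgt/gt groups lie below both WT groups for Stat5a and Stat5b.

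Among the kinases, Jak1 pairs with many receptors, including those for the interferons and for interleukin-2. It lies on chromosome 4 of GRCm38 from 101152367 to 101265282 on the minus strand. Jak1 (ENSMUSG00000028530) was at 492, 453 and 537 CPM in WT DMSO and at 457, 454 and 494 CPM in WT CMA. The groups overlapped. The log2 fold change was -0.08 with a 95% interval from -0.19 to 0.04 (adjusted p = 0.214, edgeR). Without WT DMSO replicate 2, the lowest of the 3, it was -0.14 and passed the threshold (adjusted p = 0.0115, edgeR). With each library left out in turn it ranged from -0.14 to -0.0029.

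Jak2 serves the receptors for interferon gamma, interleukin-12 and interleukin-3. The gene (ENSMUSG00000024789) lies on chromosome 19 from 29251828 to 29313080 on the plus strand. It stood at 591, 512 and 644 CPM in WT DMSO and at 788, 772 and 800 CPM in WT CMA. Each CMA library exceeded each DMSO library, although the DMSO libraries were spread widely (582 ± 66.8 CPM, SD, n = 3). The log2 fold change came to 0.43 ± 0.063 (SE, adjusted p = 1.20e-05, edgeR), and 0.34 to 0.52 over the 21 alternative analyses.

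Jak3 is found mainly in blood cells and binds the common gamma chain, the shared receptor subunit of interleukin-2 and its relatives. The gene (ENSMUSG00000031805) lies on chromosome 8 from 71676296 to 71690575 on the plus strand. Its levels were 400, 443 and 335 CPM in WT DMSO and 354, 365 and 339 CPM in WT CMA. The lowest of the 6 libraries was a DMSO library, so the groups overlapped. The log2 fold change of -0.16 had a 95% interval from -0.32 to 0.01 (adjusted p = 0.0780, edgeR). It passed the threshold in 4 of 21 alternatives. These included the replicate block by number (-0.15, adjusted p = 0.0186) and by library name (-0.15, adjusted p = 0.0301, edgeR). The others were no filter (-0.13, adjusted p = 0.0280) and leaving out WT DMSO replicate 3 (-0.25, adjusted p = 0.000396, edgeR). With a library left out the value ranged from -0.25 to -0.065. Jak3 shares 404 exonic bases with Insl3 on the same strand, where reads could not be assigned to a single gene.

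Among the STATs, Stat2 is the one that interferons alpha, beta and lambda use, in a complex with another STAT and IRF9 that binds the ISRE. The gene (ENSMUSG00000040033) lies on chromosome 10 from 128270576 to 128292849 on the plus strand. It was at 154, 161 and 171 CPM in WT DMSO and at 644, 650 and 623 CPM in WT CMA. The lowest CMA library was far above the highest DMSO library. The means were 162 ± 8.77 and 639 ± 14.1 CPM (SD, n = 3), and the log2 fold change came to 1.98 ± 0.059 (SE, adjusted p = 3.77e-14, edgeR). Only 3.47% of the 13811 genes tested had a larger positive log2 fold change. This is the gene whose promoter window with an ISRE core is printed above.

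Stat4 is activated by interleukin-12 and, in some settings, by type I interferon, and takes part in the Th1 programme. The gene (ENSMUSG00000062939) lies on chromosome 1 from 51987148 to 52107188 on the plus strand. It was at 198, 204 and 218 CPM in WT DMSO and at 510, 493 and 503 CPM in WT CMA. The groups were far apart relative to their spread of 10.3 and 8.40 CPM (SD, n = 3). The log2 fold change came to 1.28 ± 0.043 (SE, adjusted p = 1.64e-13, edgeR), and 6.60% of the genes tested had a larger one. The reference annotation places a transcript named Gm28177 over 1033 exonic bases of Stat4 on the same strand.

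Stat5a and Stat5b encode closely related proteins that carry the signals of interleukin-2 and its relatives, and they are neighbours on chromosome 11. Stat5b (ENSMUSG00000020919) runs from 100780731 to 100850724 on the minus strand and Stat5a (ENSMUSG00000004043) from 100859351 to 100885169 on the plus strand, with 8626 bases between them. Reads that align to both genes equally well were not counted on either. Stat5a was at 268, 280 and 276 CPM in WT DMSO and at 366, 370 and 334 CPM in WT CMA. All CMA libraries were the higher ones, and the log2 fold change came to 0.38 ± 0.045 (SE, adjusted p = 1.27e-06, edgeR). Stat5b was at 374, 351 and 369 CPM in WT DMSO and at 352, 357 and 337 CPM in WT CMA. These groups overlapped, and the log2 fold change of -0.06 had a 95% interval from -0.15 to 0.02 (adjusted p = 0.180, edgeR).

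Because the pair sits side by side, the ratio of Stat5a to Stat5b counts was taken within each library, where library size cancels. It was 0.717, 0.797 and 0.749 in WT DMSO and 1.04, 1.04 and 0.990 in WT CMA. The groups did not overlap, and the log2 ratio differed by 0.44 (two-sided exact permutation test, p = 0.1, the smallest that 3 against 3 libraries can give). In STINGgt/gt T cells the ratio was 0.739, 0.718 and 0.720 with DMSO and 0.744, 0.709 and 0.688 with CMA. These groups overlapped (log2 difference -0.025, exact permutation test, p = 0.5). With DMSO alone the ratio overlapped between the genotypes (log2 difference 0.055, exact permutation test, p = 0.4). Counts are not corrected for length here, so a ratio of 1 does not mean equal numbers of molecules.

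**Figure D2:**
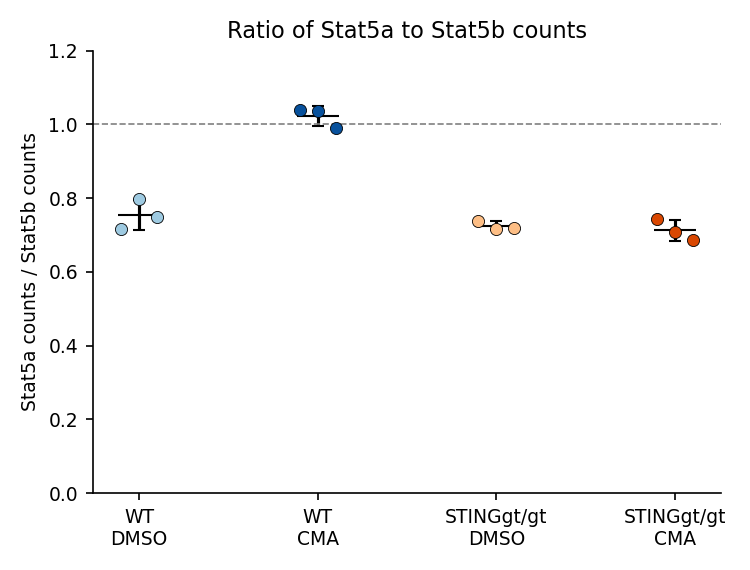
Ratio of Stat5a to Stat5b read counts (vertical axis, no unit) in each of the 12 libraries, by group, with the mean and SD of 3 libraries, and a dashed line at a ratio of 1. The WT CMA libraries lie between 0.990 and 1.04, and the other 9 libraries between 0.688 and 0.797.

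Stat3 carries the signals of interleukin-6, interleukin-10 and interleukin-21. The gene (ENSMUSG00000004040) lies on chromosome 11 from 100885098 to 100939540 on the minus strand, next to Stat5a, with which it shares 72 exonic bases on opposite strands. It was at 706, 671 and 701 CPM in WT DMSO and at 621, 637 and 609 CPM in WT CMA. All CMA libraries lay below all DMSO libraries. The log2 fold change came to -0.16 ± 0.042 (SE, adjusted p = 0.00368, edgeR), close in size to that of Jak3, whose libraries varied more.

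Stat6 carries the signals of interleukin-4 and interleukin-13 and takes part in the Th2 programme. The gene (ENSMUSG00000002147) lies on chromosome 10 from 127642986 to 127660957 on the plus strand, and 40 of its exonic bases lie opposite Nab2. It was at 284, 283 and 282 CPM in WT DMSO and at 356, 360 and 359 CPM in WT CMA. The libraries of each group were close together and the groups were well apart, at a log2 fold change of 0.34 ± 0.036 (SE, adjusted p = 2.89e-07, edgeR). Over the alternatives it was 0.32 to 0.38.

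In STINGgt/gt T cells none of the 9 genes passed the threshold between CMA and DMSO in edgeR's test, and none did with DESeq2, with limma-voom or with limma on the deposited log2 table. At an unadjusted p of 0.05, 2 genes were lower and 0 higher. Over all genes tested, 1790 of 13811 had an unadjusted p under 0.05 in this comparison (edgeR). At the adjusted threshold 0.398% of all genes tested were higher and 0.920% lower. The log2 fold changes of the 9 genes ran from -0.15 (Jak3) to 0.13 (Jak2), with a median of -0.02 beside 0.00 for all genes.

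Stat2 was at 156, 155 and 182 CPM in STINGgt/gt DMSO and at 163, 160 and 168 CPM in STINGgt/gt CMA. The groups overlapped, and the 95% interval of the log2 fold change, -0.13 to 0.12, holds no change of the size seen in WT. Stat4 was at 192, 188 and 186 CPM with DMSO and at 194, 202 and 194 CPM with CMA. Its CMA libraries were the higher ones by a narrow margin, and the interval was -0.03 to 0.15.

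Jak2 was at 573, 576 and 575 CPM in STINGgt/gt DMSO and at 601, 662 and 626 CPM in STINGgt/gt CMA. The groups did not overlap, but the log2 fold change of 0.13 did not pass the threshold (95% interval 0.00 to 0.27, adjusted p = 0.395, edgeR). Stat5a was at 205, 208 and 211 CPM with DMSO and at 198, 187 and 190 CPM with CMA. Here the CMA libraries were the lower ones, opposite to WT, with a log2 fold change of -0.12 (unadjusted p = 0.0172, adjusted p = 0.251, edgeR). Stat5b, at 278, 290 and 293 CPM with DMSO and 266, 263 and 276 CPM with CMA, was the other gene with an unadjusted p under 0.05 (log2 fold change -0.10, unadjusted p = 0.0363, adjusted p = 0.341, edgeR).

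Jak1 lay between 443 and 465 CPM in the 6 STINGgt/gt libraries, Stat3 between 536 and 581 CPM and Stat6 between 286 and 299 CPM. Their DMSO and CMA groups overlapped. Jak3 was at 342, 360 and 385 CPM with DMSO and 331, 315 and 334 CPM with CMA, which did not overlap, at a log2 value of -0.15 (adjusted p = 0.430, edgeR). It passed the threshold only where the STINGgt/gt groups were fitted without the others (adjusted p = 0.0476, edgeR).

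**Figure D3:**
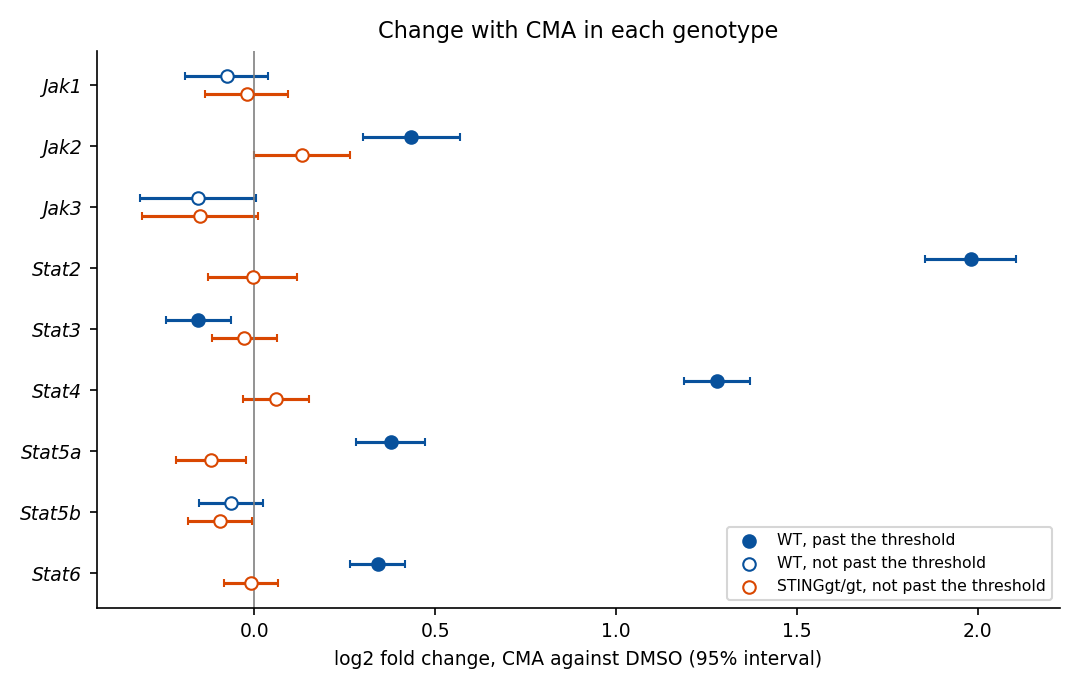
Log2 fold change of CMA against DMSO (horizontal axis) with its 95% interval for each gene, in WT (blue) and STINGgt/gt (orange). Filled points passed an adjusted p of 0.05 in edgeR's test. The WT points for Stat2 (1.98) and Stat4 (1.28) lie far to the right, and all STINGgt/gt points lie between -0.15 and 0.13.

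The difference between the genotypes was then tested itself, as the interaction of genotype and treatment. The signed log2 fold change with CMA was higher in WT for 5 of the 9 genes and lower for 0 (edgeR). Lower were also 0 at an unadjusted p of 0.05 (edgeR) and 0 with DESeq2, limma-voom or limma on the deposited log2 table. Over all genes tested it was higher in WT for 27.2% and lower for 31.6%, where lower includes a stronger fall in WT. For Stat2 the difference of the log2 fold changes was 1.98 ± 0.082 (SE, adjusted p = 7.40e-12, edgeR). For Stat4 it was 1.22 ± 0.060 (SE, adjusted p = 6.44e-11, edgeR). Stat5a differed by 0.50 (adjusted p = 5.17e-06), Stat6 by 0.35 (adjusted p = 1.87e-05) and Jak2 by 0.30 (adjusted p = 0.00824, edgeR). These 5 calls held in each of the 20 alternatives. For Stat3 the difference was -0.13 with an adjusted p of 0.0800 (edgeR), so its lower level with CMA was not shown to depend on the genotype. It passed with library-size scaling (-0.15, adjusted p = 0.0407) and without WT DMSO replicate 2 (-0.15, adjusted p = 0.0314). The differences for Jak1 (95% interval -0.22 to 0.11), Jak3 (-0.23 to 0.22) and Stat5b (-0.09 to 0.16) did not pass.

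With DMSO alone, 4 of the 9 genes were higher in WT than in STINGgt/gt T cells and 0 were lower (edgeR, also 0 at an unadjusted p of 0.05 and with DESeq2, limma-voom or limma on the deposited log2 table), against 22.9% and 19.8% of all genes tested. Stat5a was at 268 to 280 CPM in WT and at 205 to 211 CPM in STINGgt/gt DMSO libraries, a log2 difference of 0.40 ± 0.045 (SE, adjusted p = 2.44e-06, edgeR). Stat5b differed by 0.35 (adjusted p = 5.72e-06, edgeR) and Stat3 by 0.31 (adjusted p = 2.18e-05, edgeR). These 3 genes, which share a stretch of chromosome 11, were thus higher in WT without any CMA. Their groups did not overlap, but neither did those of Stat4, higher in WT, and Stat6, lower in WT. Stat6 was at 282 to 284 CPM in WT DMSO and at 286 to 299 CPM in STINGgt/gt DMSO. The share of all genes whose groups do not overlap is not given here.

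The DMSO difference of Stat4 was smaller, 0.13 (adjusted p = 0.0201, edgeR), and was lost in 5 of 19 alternatives. Without WT DMSO replicate 3 it was 0.085 (adjusted p = 0.0899), without STINGgt/gt DMSO replicate 2 it was 0.12 (adjusted p = 0.0810) and without STINGgt/gt DMSO replicate 3 it was 0.12 (adjusted p = 0.0735, edgeR). Stat2 (95% interval -0.14 to 0.10), Jak2 (-0.11 to 0.15) and Stat6 (-0.12 to 0.03) did not pass, nor did Jak1 (0.11, adjusted p = 0.119) and Jak3 (0.12, adjusted p = 0.237, edgeR). Jak1 passed without WT DMSO replicate 2 (0.16, adjusted p = 0.00922) and Jak3 without WT DMSO replicate 3 (0.21, adjusted p = 0.00297, edgeR). With each library left out in turn, the difference ranged from 0.039 to 0.16 for Jak1 and from 0.013 to 0.21 for Jak3. Markers of other cells moved with the genotype. With DMSO all 6 B cell markers were higher in WT, by a median log2 difference of 1.05, and so were the 6 myeloid markers tested (of 7) and 4 of 6 markers of CD8 T cells and natural killer cells, while 1 of these was lower. Myeloid markers together reached 57.4 to 64.5 CPM in WT DMSO and 41.2 to 44.1 CPM in STINGgt/gt DMSO, and the CD8 and natural killer cell markers 145 to 153 and 65.1 to 72.2 CPM. None of these markers was at 0 in every library, and their part in the genotype differences was not tested.

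With CMA, 7 of the 9 genes were higher in WT than in STINGgt/gt T cells and 0 were lower (edgeR, also 0 at an unadjusted p of 0.05 and with DESeq2, limma-voom or limma on the deposited log2 table), against 37.0% and 36.5% of all genes tested. Stat2 differed by a log2 value of 1.97, Stat4 by 1.35 and Stat5a by 0.90. Stat5b (0.38), Jak2 (0.32), Stat6 (0.31) and Stat3 (0.18) followed, with adjusted p-values up to 0.00106 (edgeR). Jak1 (0.05, 95% interval -0.06 to 0.17) and Jak3 (0.11, -0.05 to 0.27) did not pass. Jak3 passed without WT DMSO replicate 3 (0.12, adjusted p = 0.0351) and where these groups were fitted alone (0.10, adjusted p = 0.0232, edgeR). In WT the summed level of the B cell markers was 632 to 695 CPM with DMSO and 715 to 798 CPM with CMA, that of the myeloid markers 57.4 to 64.5 and 70.7 to 74.7 CPM, and that of the CD8 and natural killer cell markers 145 to 153 and 87.9 to 95.8 CPM. Between WT CMA and WT DMSO, 4 of 6 B cell markers were higher, 1 myeloid marker was higher and 3 were lower of 6 tested, and 1 CD8 or natural killer cell marker was higher and 4 were lower of 6. The part of these cells in the CMA differences was not tested. The CD4 T cell markers together were at 3287 to 3364 CPM with DMSO and 3039 to 3066 CPM with CMA.

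On the scale per length, which allows the genes to be ranked against each other, Jak2 was the most abundant of the 9 in every group (116 ± 13.3 RPKM in WT DMSO, SD, n = 3). In WT DMSO it was followed by Jak3, Stat3, Jak1, Stat5b and Stat6 between 64.3 and 73.4 RPKM, where neighbours in the order overlapped in their libraries and cannot be ranked. Stat4 (53.4 RPKM), Stat5a (38.5 RPKM) and Stat2 (27.3 RPKM) came last and did not overlap.

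With CMA the order in WT changed. Stat4 (130 ± 2.17 RPKM) now followed Jak2, and Stat2 (108 ± 2.38 RPKM, SD, n = 3) came next, ahead of Stat6 (81.4 RPKM), and none of these 4 genes, Jak2 included, overlapped its neighbour. Jak3, Stat3, Jak1 and Stat5b lay between 63.0 and 65.9 RPKM with overlapping neighbours, and Stat5a came last. In STINGgt/gt T cells Stat2 and Stat5a were the lowest pair with DMSO (27.7 and 29.2 RPKM) and with CMA (27.6 and 26.8 RPKM), and their libraries overlapped each time.

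Summed over the 9 genes the level was 580 ± 14.5 RPKM in WT DMSO and 784 ± 4.46 RPKM in WT CMA (SD, n = 3). In STINGgt/gt T cells it was 528 ± 11.8 RPKM with DMSO and 526 ± 6.34 RPKM with CMA. Stat2 made up 4.71% of the sum in WT DMSO and 13.8% in WT CMA, and Stat4 9.21% and 16.5%. The share of Jak2 stayed at 19.9% in both. Lengths are exon unions of the GENCODE M21 annotation, so a gene that uses short isoforms is underrated.

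**Figure D4:**
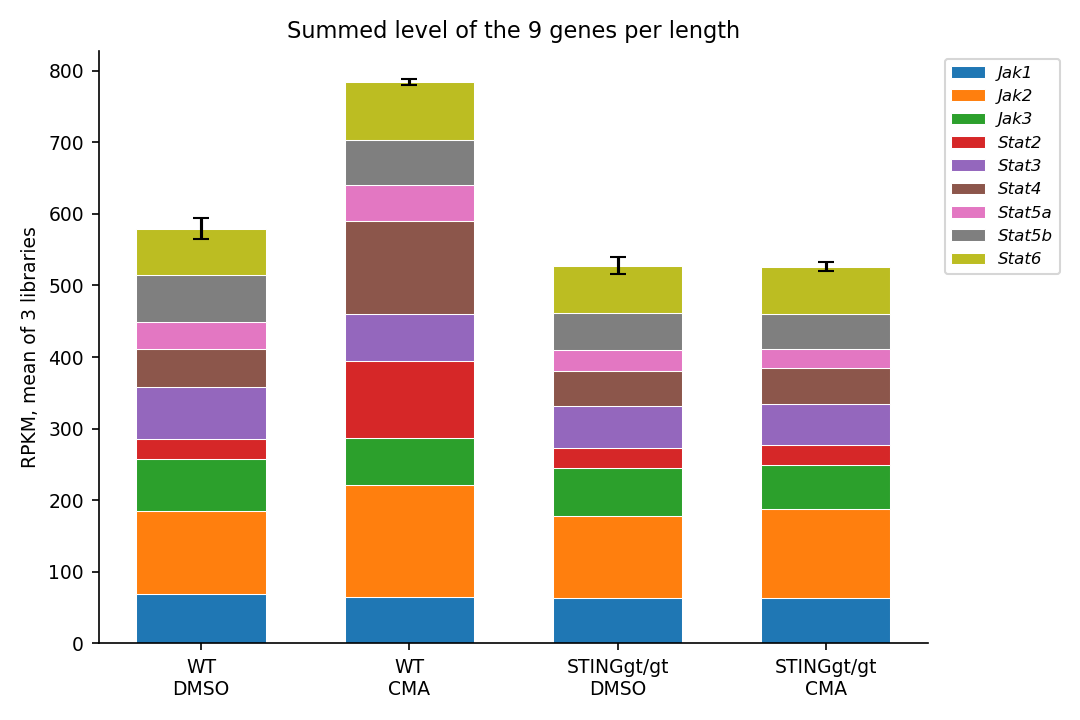
Mean RPKM of the 9 genes stacked by group (vertical axis, from 0), with the SD of the sum over 3 libraries as a bar. The WT CMA column reaches 784 RPKM against 526 to 580 RPKM in the other groups, and its Stat2 and Stat4 segments are the ones that widen most.

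The genes whose levels ran most like those of Stat2, Stat4 and Jak2 were sought over the 12 libraries among 11190 other genes, by the Pearson correlation of log2 CPM. For Stat2 they were Isg15, an interferon-induced ubiquitin-like protein (r = 0.999), Ifit1, which binds foreign RNA (r = 0.998), and Trim25, a ubiquitin ligase of RNA sensing (r = 0.998). For Stat4 they were AW112010 (r = 0.999), Pmaip1, which encodes the proapoptotic protein Noxa (r = 0.999), and Tor3a (r = 0.999). For Jak2 they were Zcchc11 (r = 0.987), Trp53inp1 (r = 0.985) and Pde3b (r = 0.983). The 3 WT CMA libraries stand apart for these genes and set much of r. Over the other 9 libraries r was 0.67 to 0.81 for the genes named with Stat2, 0.87 to 0.97 for those with Stat4 and 0.93 to 0.96 for those with Jak2.

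The rest of the pathway was read from 6 lists of its known genes. Of the 110 list genes tested, Ifnb1, Ifnl2, Ifnl3 and Osmr passed the filter on low counts through the WT CMA libraries alone, and Lifr through the WT DMSO libraries alone. Of all genes that passed through WT CMA alone, 261 of 295 were called higher. Of those that passed through WT DMSO alone, 58 of 80 were called lower. The filter thus favours the calls of these list genes (higher for the first 4, lower for Lifr) without fixing them. They stay out of the counts for WT. Of the other 105 genes, 59.0% were higher and 18.1% lower with CMA in WT. Among the 13436 of all genes that are left by the same rule, 32.0% were higher and 38.0% lower, with a median log2 fold change of -0.05. Of 24 cytokines that signal through JAKs, 21 were tested. Of the 18 that remain without Ifnb1, Ifnl2 and Ifnl3, 10 (55.6%) were higher with CMA in WT and 2 (11.1%) lower, with a median log2 fold change of 0.75. Ifnl3, an interferon lambda whose receptor uses STAT2, had 0 counts in each WT DMSO library and 19.4 to 25.8 CPM in WT CMA, at least 249-fold higher when 3 counts per library are taken as the floor. Its near-identical neighbour Ifnl2 was at 0.049 CPM or less in WT DMSO and at 16.9 to 24.8 CPM in WT CMA, and reads may be split between the copies. Ifnlr1, a chain of the interferon lambda receptor, was near the floor. It lay at 0.268 to 0.400 CPM in WT DMSO and at 0.031 to 0.158 CPM in WT CMA (log2 fold change -1.63, adjusted p = 0.00465, edgeR). Il15, which signals through JAK1, JAK3 and STAT5, was at 0.414 to 0.655 CPM in WT DMSO and at 9.22 to 9.98 CPM in WT CMA. The cytokines that fell were Il3 (log2 fold change -1.50, adjusted p = 4.55e-05) and Ifng (-0.73, adjusted p = 5.19e-07, edgeR). Ifng, the ligand of a receptor served by JAK1 and JAK2, was at 56.3 to 57.4 CPM in WT DMSO and at 30.9 to 36.3 CPM in WT CMA. Both also differed in their CMA effect between the genotypes (adjusted p = 0.0168 and 0.00705, edgeR).

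All 27 receptor chains of a list were tested. Of the 25 without Osmr and Lifr, 13 (52.0%) were higher and 6 (24.0%) lower with CMA in WT, with a median log2 fold change of 0.36. Il10ra, the interleukin-10 receptor chain that signals through STAT3, rose by 1.19 (adjusted p = 2.00e-11, edgeR) from 132 ± 7.14 CPM in WT DMSO to 299 ± 5.77 CPM in WT CMA (SD, n = 3). Il7r, the interleukin-7 receptor chain, rose by 1.16 (adjusted p = 9.43e-12, edgeR), and the less abundant Il9r by 1.80 (adjusted p = 3.79e-08, edgeR). Il13ra1, a chain that acts through STAT6, fell by 1.45 in log2 units (adjusted p = 2.55e-07, edgeR). Il6ra and Il6st, the chains of the interleukin-6 receptor that act through STAT3, fell by 0.34 and 0.26 in log2 units (adjusted p = 0.00106 and 0.0115, edgeR).

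Among 20 inhibitors of the pathway 11 (55.0%) were higher and 5 (25.0%) lower with CMA in WT, with a median of 0.15. Usp18, which limits signalling at the interferon alpha and beta receptor, was at 23.9 to 35.5 CPM in WT DMSO and at 474 to 484 CPM in WT CMA (log2 fold change 4.02, adjusted p = 3.97e-14, edgeR). Socs5 rose by 1.23 and Pias2 by 0.89 in log2 units (adjusted p = 1.65e-10 and 8.28e-11, edgeR). The inhibitors that fell were Socs2, a target of STAT5 (-0.79, adjusted p = 9.40e-06), Socs3, a target of STAT3 (-0.37, adjusted p = 8.06e-06), and the phosphatase gene Ptpn1 (-0.33, adjusted p = 2.31e-06), together with Ptpn2 (-0.21) and Pdlim2 (-0.22, edgeR). The CMA effects on Socs3 and Ptpn2 were not shown to differ between the genotypes (adjusted p = 0.188 and 0.0878, edgeR).

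Of 8 adaptors and transcriptional partners, 5 (62.5%) were higher and 2 (25.0%) lower, with a median of 0.34. Irf9, the DNA-binding partner of STAT2, was at 57.2 to 64.5 CPM in WT DMSO and at 153 to 154 CPM in WT CMA (log2 fold change 1.36, adjusted p = 5.46e-12, edgeR). Nmi, which binds STAT proteins, rose by 1.29 and the coactivator Crebbp by 0.63 in log2 units (adjusted p = 2.87e-12 and 2.98e-06, edgeR), and Stam2 (0.48) and Ep300 (0.20) were higher as well. The adaptor Sh2b1 (-0.34, adjusted p = 0.000493) and the coactivator Ncoa1 (-0.32, adjusted p = 0.000424, edgeR) were lower. The CMA effects on Sh2b1 and Ep300 were not shown to differ between the genotypes (adjusted p = 0.235 and 0.0929, edgeR).

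Among 21 genes known as targets of STAT3, STAT4, STAT5 or STAT6 in T cells, 10 (47.6%) were higher and 4 (19.0%) lower with CMA in WT (median 0.12). Ccnd2, Pim1 and Bcl2l1, targets of STAT5 that act in the cell cycle and in survival, rose by 1.12, 0.93 and 0.92 in log2 units (adjusted p = 2.90e-12, 2.32e-12 and 1.09e-10, edgeR). The 7 genes of the list that did not pass include Bcl2 (0.01, adjusted p = 0.886), Ccnd3 (0.03, adjusted p = 0.636) and Foxp3 (-0.13, adjusted p = 0.514, edgeR). Socs2, named above as a target of STAT5, fell. Il18r1 and Il18rap, the chains of the interleukin-18 receptor and targets of STAT4, fell by 1.42 and 1.49 in log2 units (adjusted p = 6.63e-10 and 2.11e-08, edgeR). Tbx21 and Furin, which are linked to STAT4 and the Th1 programme as well, rose by 0.87 and 0.37 in log2 units (adjusted p = 2.15e-11 and 0.00355, edgeR). Hlx was lower too, at 4.59 to 4.97 CPM in WT DMSO and 0.781 to 1.07 CPM in WT CMA (adjusted p = 2.54e-10, edgeR), and Maf fell by 1.29 on the log2 scale.

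All 13 genes of a list of interferon-stimulated genes, known for binding by STAT2 complexes, were higher with CMA in WT, beside 33.0% of all genes tested. Their median log2 fold change was 5.24. The list was chosen with earlier results of these data known, so the count is a description and not a test. Binding by STAT2 was not measured here, and its part in these levels was not tested. Oasl2 rose by 7.40, Rsad2 by 7.37 and Ifit3 by 7.22 (adjusted p = 1.71e-19, 6.38e-19 and 2.41e-17, edgeR), all of them antiviral effectors. The log2 fold change of Stat2, 1.98, was below the lowest of this list, 2.19.

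In STINGgt/gt T cells 7 of the 110 list genes tested passed between CMA and DMSO. Higher were 2 (1.82%) and lower were 5 (4.55%), beside 0.398% and 0.920% of all genes tested. Of the 13 interferon-stimulated genes 0 did (edgeR, also 0 at an unadjusted p of 0.05 and with DESeq2, limma-voom or limma on the deposited log2 table), with a median log2 fold change of 0.00. Of the 8 partners 0 passed (edgeR, with 1 lower at an unadjusted p of 0.05 and 0 with the other tools). Among the cytokines, only Il2 was higher (0.82, adjusted p = 0.00243, edgeR). Among the receptor chains, Il7r (-0.42, adjusted p = 0.00271) and Ifngr2 (-0.27, adjusted p = 0.0242, edgeR) were lower. Of the inhibitors, Socs3 was lower (-0.25, adjusted p = 0.0395, edgeR). Of the targets, Tbx21, the Th1 regulator, was higher (0.30, adjusted p = 0.00208), and Bcl2 (-0.27, adjusted p = 0.0350) and Gata3, the Th2 regulator (-0.31, adjusted p = 0.00841, edgeR), were lower. These genes, and Ifnlr1, Ptpn2, Pdlim2, Stam2, Ep300, Ccnd3, Foxp3, Furin and Maf above, were named after their values were seen.

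**Figure D5:**
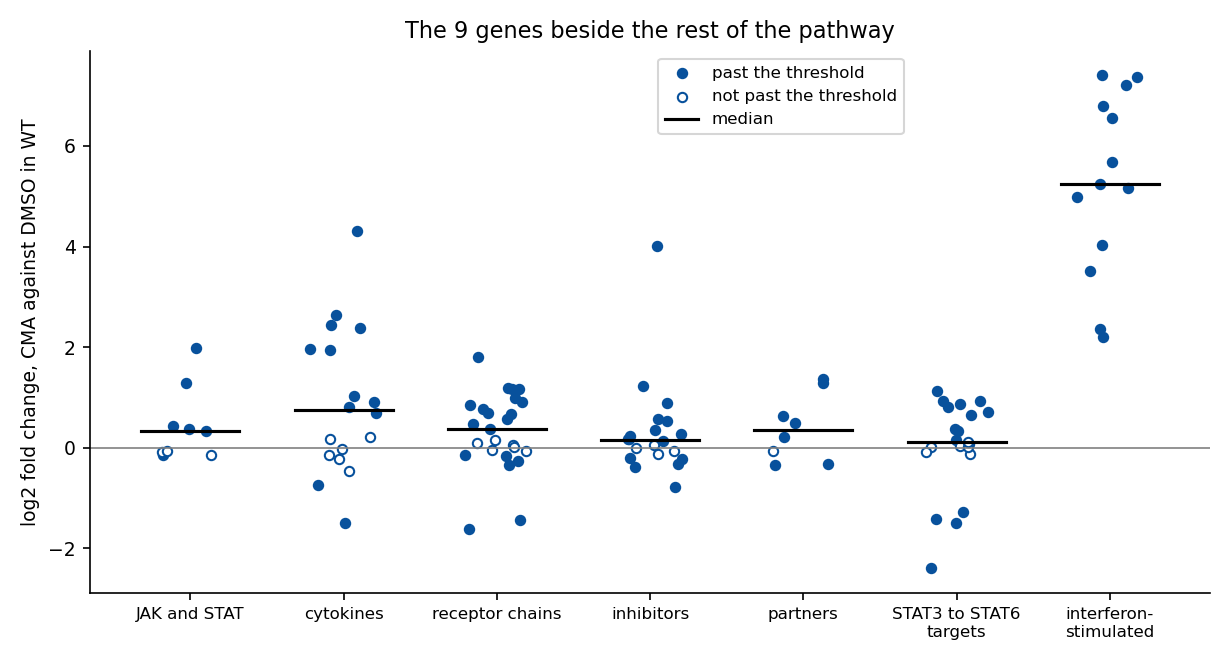
Log2 fold change of CMA against DMSO in WT (vertical axis) for the 9 genes and for the tested genes of 6 pathway lists (horizontal axis, 1 point per gene), with the median of each list's points as a line. Ifnb1, Ifnl2, Ifnl3, Osmr and Lifr, which passed the filter through 1 WT group alone, are not drawn. Filled points passed an adjusted p of 0.05 in edgeR's test. The interferon-stimulated genes lie between 2.19 and 7.40, above every JAK and STAT gene.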

How the data were processed

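RNA of 12 libraries was sequenced from poly(A) RNA with a stranded kit. The authors deposited unnormalized read counts for 38924 Ensembl genes and a log2 expression table for 11921 of them. Each deposited log2 value matches the count plus 0.5, scaled by a single factor for the library, on the log2 scale. The submitters' processing notes name cutadapt 1.3, STAR 2.4.0f1, HTSeq 0.6.1, RSEM 1.2.16 and GRCm38. Their roles, the annotation release and the strand setting of the counting are not given in the sources used here. Alignments that were not unique (27.8% to 30.3% of entries), reads outside genes (4.86% to 7.16%) and ambiguous reads (0.594% to 0.635%) stayed out of library sizes and tests.

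The deposited counts were fitted with edgeR 4.0.16 (glmQLFit and glmQLFTest, R 4.3.3), with TMM scaling, filterByExpr by group and the 4 groups in 1 model, which kept 13811 genes. CMA was compared with DMSO within each genotype, these effects were compared with each other, and the genotypes were compared under each treatment, with Benjamini-Hochberg adjustment over all genes and a threshold of 0.05. Intervals of 95% use the test's degrees of freedom. CPM were divided by GENCODE M21 exon lengths for RPKM. Promoter windows on 1 chromosome were not used here. The alternatives were library-size scaling, DESeq2 1.42.0, limma-voom, limma 3.58.1 on the deposited log2 values, a minimum of 10 counts per library or no filter, fits of only the 2 groups compared, replicate blocks and leaving out each library. On data simulated for CMA against DMSO in WT (13816 genes, 200 changed) edgeR recovered 185 changed genes and called 10 unchanged ones. The simulation gave all genes the same spread and changed few of them, while 33.0% were called higher and 37.4% lower in the data. It therefore checks that the fit runs and does not give its error rate here.

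All 9 members are named. From each pathway list at most 3 genes that rose and 3 that fell with CMA in WT are named, those with the largest change past the threshold and a mean count of at least 50. Beyond this rule, further genes were named after their values were seen. They are Ifnlr1, Ptpn2, Pdlim2, Stam2, Ep300, Ccnd3, Foxp3, Furin and Maf. The genes that passed the filter through 1 WT group and the list genes that passed in STINGgt/gt were named in the same way. The members and the lists were chosen with earlier results of these data known. Precision is limited by 3 libraries per group.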

Additional observations from a re-analysis of the deposited data

Results flagged for a closer look

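The CMA effect differed between the genotypes, by the test of the interaction itself, for 5 of the 9 genes, with a larger effect in WT for each. Over all genes tested the signed log2 fold change was higher in WT for 27.2% and lower for 31.6%. Lower includes a stronger fall in WT, and a call as such was common. The difference of the log2 fold changes, WT minus STINGgt/gt, was 1.98 for Stat2, 1.22 for Stat4, 0.50 for Stat5a, 0.35 for Stat6 and 0.30 for Jak2. Stat5a is the gene of these whose STINGgt/gt libraries lay on the other side, with all 3 CMA libraries below all 3 DMSO libraries. With 3 libraries in each group, single libraries that stand apart were not tested for.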

How the results depend on the processing

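The 5 genes higher with CMA in WT and the 5 whose effect differed between the genotypes numbered 5 under every alternative run. Of the single values of the 9 genes under the alternatives, 859 kept their direction and their side of the threshold, 12 newly passed it, 5 no longer passed it and 24 changed sign. The genes lower with CMA in WT numbered 2 with no filter and with either replicate block (by number or by the name of the library). In each of these fits Jak3 joined Stat3. When a library was left out, the genes lower with CMA in WT numbered 1 to 2. In STINGgt/gt T cells 1 gene was lower with only the 2 groups compared. For the difference 1 gene was lower with library-size scaling, and 0 to 1 when a library was left out. Over all genes, the calls in STINGgt/gt were 55 higher and 127 lower in the main analysis, 122 and 205 with DESeq2, 176 and 257 with no filter, 268 and 388 with only these groups fitted, 130 and 233 with the replicate block, 12 and 31 with the block by name, and between 14 and 180 higher and 41 and 289 lower with a library left out. Between the genotypes with DMSO 2546 to 3281 genes were higher in WT and 2137 to 3195 lower. The higher ones were more numerous in the main analysis (3160 and 2740) and the lower ones with library-size scaling (2846 and 3195), DESeq2 (2794 and 2828), no filter (3056 and 3057) and a minimum of 10 counts per library (2546 and 2950). The replicate numbers were not shown to pair the libraries, since the deviations of DMSO and CMA libraries with the same number correlated at 0.00195, 0.104 and 0.132 in WT and at 0.0585 to 0.0634 in STINGgt/gt. In STINGgt/gt each library correlated best with its own number, as did the WT DMSO libraries other than 1 (0.056 with CMA 2). The library names hint at pairs as well. Within a replicate number the DMSO and CMA names share their leading digit (41 and 42 for WT replicate 1), except STINGgt/gt replicate 2 (71 and 62). Neither hint states a pairing.

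The changes of sign concern values near 0 that did not pass the threshold, and their cause was not tested. The Jak3 difference reached 0.0024 in limma-voom, 0.021 in DESeq2 and 0.049 in limma on deposited log2 values, 0.0047 with no filter, 0.030 with a minimum of 10 counts per library and 0.0014 with the replicate block, and -0.097 to 0.086 when a library was left out. Jak2 between the genotypes with DMSO was -0.0064 with library-size scaling, -0.0016 with a minimum of 10 counts per library and -0.065 to 0.098 with a library left out. Stat2 in STINGgt/gt was 0.0054 with no filter, 0.0037 with that minimum and -0.045 to 0.073 with a library left out, and Stat6 there was 0.00039 with no filter and -0.026 to 0.0058. Leaving out a library gave -0.066 to 0.055 for Stat2 between the genotypes with DMSO and -0.12 to 0.019 for the Jak1 difference.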
